A study of Rattus norvegicus with 93 samples.

Results

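Endothelial cells, which line blood vessels, and mural cells, the pericytes and smooth muscle cells that wrap them, were followed through 10 genes in bulk RNA-seq of the rat rostromedial tegmental nucleus (RMTg), an inhibitory brainstem nucleus that projects to midbrain dopamine neurons. The genes were taken by name from the 38354 genes of the deposited table. Of these, 8 are used as endothelial genes (Cldn5, Pecam1, Flt1, Esam, Slc2a1, Ets1, Kdr and Tek) and 2 as mural genes (Pdgfrb and Rgs5). All libraries belong to 1 group. They came from outbred laboratory rats, 1 polyadenylated RNA library per label, and the labels give no genotype, treatment, behaviour, age or sex. Of 92 libraries with values, 49 were used: those in which Nif3l1 took less than 20% of the counts, and LOC120093067 with Zfp532 less than 10%. The identifiers of the used libraries fall into 5 number series, called B to F here, with 7, 16, 12, 7 and 7 libraries. The labels do not say what these series are. They served only as possible batches, and a library is called by its series and a number given in accession order.

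In the brain, endothelial cells form the blood-brain barrier. Claudin-5 seals their tight junctions, the glucose transporter GLUT1 carries glucose across them, and vascular endothelial growth factors and angiopoietins act on receptor tyrosine kinases on their surface. Pericytes are attached to the same capillaries, and their recruitment depends on platelet-derived growth factor B from endothelial cells and its receptor on the pericyte.

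The 49 libraries held 9.55 to 50.2 M estimated counts each, where M is 1000000, around a median of 19.2 M. In each of them 23690 to 28273 genes were above 0. None was a copy of another: over 1176 pairs the lowest chi-square per gene was 7.30 and 0 pairs were identical. The share of LOC120093067 with Zfp532 was 5.50% in the library just inside the rule and 19.8% in the one just outside. The labelled tissue was checked against cell type lists: 9 of 9 neuronal, 8 of 8 oligodendrocyte and 10 of 10 RMTg genes passed the filter on low values, against 2 of 5 choroid plexus genes. Among vascular lists, 15 of 16 endothelial identity genes (not Ecscr) and 14 of 15 pericyte genes (not Ifitm1) passed. All 10 members passed it, and every member was above 3 estimated counts in each of the 49 libraries. In bulk tissue, fewer cells of a type and less RNA per cell cannot be told apart. Each library has its own identifier, but the labels do not state whether each identifier is a separate rat. The p-values thus measure only the spread between these libraries.

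The bases before the start of 3 members are printed because Cldn5 was called as a partner of both others in the comparison over libraries, also with series as a covariate: Slc2a1, an endothelial gene, and Rgs5, a mural one. Each is the 250 bases before the annotated start, 5′ to 3′ on the gene's strand, from RefSeq on build GRCr8, with capitals marking matches to the GC box GGGCGG or its reverse complement CCGCCC. They lie at chr11:95718599-95718848 (minus strand) for Cldn5, chr5:138002272-138002521 (plus strand) for Slc2a1 and chr13:84380827-84381076 (plus strand) for Rgs5.
Cldn5: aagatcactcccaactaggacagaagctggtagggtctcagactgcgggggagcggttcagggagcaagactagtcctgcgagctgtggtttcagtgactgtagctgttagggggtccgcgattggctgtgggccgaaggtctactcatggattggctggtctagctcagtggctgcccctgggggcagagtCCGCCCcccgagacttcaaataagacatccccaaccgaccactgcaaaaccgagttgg
Slc2a1: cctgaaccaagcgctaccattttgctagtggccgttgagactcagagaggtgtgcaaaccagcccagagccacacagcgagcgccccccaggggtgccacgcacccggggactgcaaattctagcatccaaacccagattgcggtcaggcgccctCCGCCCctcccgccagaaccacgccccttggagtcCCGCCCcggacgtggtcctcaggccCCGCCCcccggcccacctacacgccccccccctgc
Rgs5: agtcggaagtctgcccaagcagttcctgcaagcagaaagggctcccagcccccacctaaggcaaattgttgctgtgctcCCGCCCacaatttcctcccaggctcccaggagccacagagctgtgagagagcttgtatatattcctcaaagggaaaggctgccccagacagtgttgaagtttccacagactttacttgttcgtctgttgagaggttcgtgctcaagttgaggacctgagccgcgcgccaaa

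All 10 symbols were matched in RefSeq, and a promoter window of 300 bases (250 before to 50 after the start) was given for 5 of them (Cldn5, Flt1, Slc2a1, Kdr and Rgs5). Those of Flt1 and Kdr are set at a start inside the annotated gene. The GC box was found on either strand in 5 of 5 of these windows and in 33.1% of all 33469 promoter windows of that length. Slc2a1 and Flt1 held 3 matches each, and Cldn5, Kdr and Rgs5 held 1 each. TATAAA was found on either strand in Flt1 and Slc2a1, 2 of 5, against 14.2% of all windows. The Slc2a1 match is not within the 250 bases printed above, so it does not lie wholly before the annotated start. The ETS words CAGGAAG and CCGGAAG, which share their last 5 letters, were found in 0 of 5, against 12.5% and 8.75% of all windows. The shared letters GGAAG were not searched alone, and the printed Rgs5 bases hold them. GC content was 54.3% in Rgs5, 57.7% in Cldn5, 61% in Kdr, 68.3% in Slc2a1 and 72.7% in Flt1, above the median of 51.7% over all windows. A match is a description of the letters in a window and not of binding.

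Levels are in counts per 1000000 (CPM), which are not divided by transcript length, so they were compared between libraries and not between genes. Among junction and adhesion genes, Cldn5 (chromosome 11, 95717172 to 95718598), which encodes the main tight junction claudin of brain endothelium, ranged from 48.8 CPM through a median of 82.5 to 124 CPM. Its lowest library stood apart from the rest, with series D library 67 at 48.8 CPM and the next, series C library 62, at 59.1 CPM. Esam (chromosome 8, 45426985 to 45437976), an adhesion molecule of endothelial junctions, ranged from 11.7 through 17.5 to 29.1 CPM. Pecam1 (chromosome 10, 92090263 to 92152002), which encodes CD31, ranged from 4.67 through 10.9 to 16.2 CPM. The same library, series C library 62, was lowest for Esam and Pecam1 and second lowest for Cldn5.

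Slc2a1 (chromosome 5, 138002522 to 138030742) encodes GLUT1. Its level ranged from 60.3 through 107.0 to 178 CPM, and the 10 highest libraries all came from series E and F. Astrocytes also carry GLUT1, so Slc2a1 is not read from endothelial cells alone.

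Kdr (chromosome 14, 32572031 to 32615204), the signalling receptor VEGFR2, ranged from 8.77 through 13.9 to 20.5 CPM. Flt1 (chromosome 12, 12333050 to 12504750), the receptor VEGFR1 that also binds the ligand as a decoy, ranged from 33.9 through 54.6 to 76.1 CPM. Tek (chromosome 5, 114722815 to 114849535), the angiopoietin receptor TIE2, ranged from 4.56 through 9.50 to 15.7 CPM. The 3 lowest libraries for Tek were series C libraries 62, 63 and 44, at 4.56, 5.01 and 5.26 CPM, and the highest, series C library 57, came from that series too. Ets1 (chromosome 8, 39303936 to 39426022), a transcription factor of endothelial and immune cells, ranged from 2.80 through 6.01 to 11.3 CPM.

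Pdgfrb (chromosome 18, 56770348 to 56809228), the pericyte's receptor for platelet-derived growth factor B, ranged from 5.45 through 11.1 to 16.7 CPM. Rgs5 (chromosome 13, 84381077 to 84417875), a regulator of G protein signalling used as a pericyte marker, ranged from 1.42 through 5.98 to 10.9 CPM. Rgs5 was lowest in series C libraries 62 and 63, both at 1.42 CPM, and series D library 67 was next at 2.04 CPM. The 3 highest Rgs5 libraries, at 10.4 to 10.9 CPM, were all of series D.

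**Figure D1:**
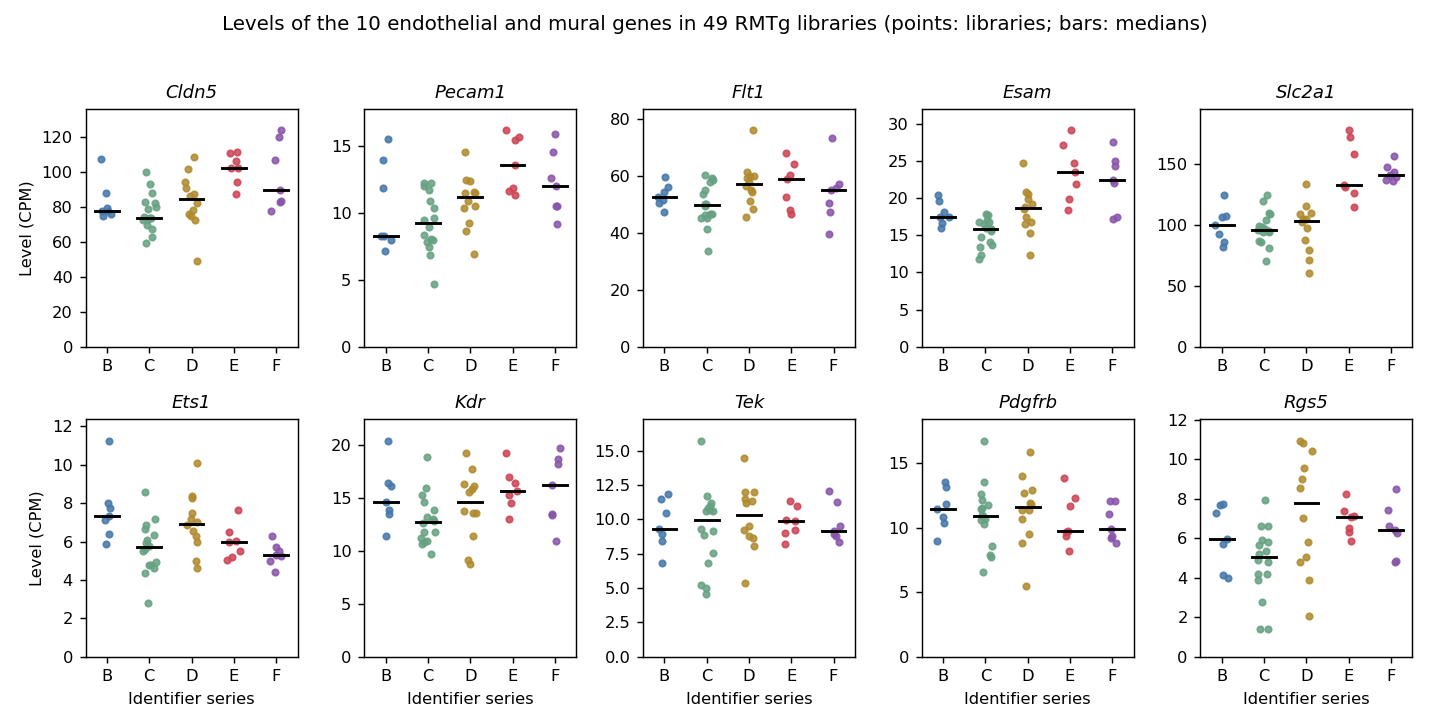
Level of each of the 10 genes (CPM, vertical axis from 0) in each of 49 libraries by identifier series (horizontal axis), with points for libraries and bars for medians. Slc2a1 and Esam stand higher in series E and F than in B, C and D, and Rgs5 spreads most within series C and D.

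Spread between libraries was several times what counting alone would give. The coefficient of variation (CV, SD over mean) was 35.4% for Rgs5, 24.8% for Pecam1, 24% for Ets1, 23.7% for Slc2a1, 22.8% for Tek, 21.7% for Esam, 20.1% for Kdr, 19.7% for Pdgfrb, 18.4% for Cldn5 and 14.8% for Flt1 (n = 49). Counting error, averaged over the 49 libraries for each gene, came to between 2.25% (Slc2a1) and 9.95% (Rgs5), and it leaves out the error of assigning reads. After the trend of SD on mean level was removed, Rgs5 stood at percentile 93.4 and Slc2a1 at percentile 86.2 of the 18749 genes tested. Pecam1, Cldn5, Esam and Tek stood between percentiles 61.3 and 73, and Kdr at 49.5. Pdgfrb (37.2), Flt1 (35.7) and Ets1 (29.9) varied less than most genes of their level.

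Members were then set against each other over the 49 libraries, to ask which vascular genes rose and fell together. For each member, limma was fitted to every gene with that member's log2(CPM + 1) as predictor, and a pair was called when both fits, with either gene as predictor, passed a Benjamini-Hochberg adjusted p of 0.05 over all genes. Of the 45 pairs, 17 were called, and Pearson's r was positive in 43 with a median of 0.36. Among endothelial genes 12 of 28 pairs were called (median r 0.38), and between endothelial and mural genes 5 of 16 (median r 0.34), all with Rgs5. The pair of mural genes, Pdgfrb and Rgs5, had r of 0.30 and an adjusted p of 0.20.

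The number of called partners differed between members, and so did the share of all genes that rose with each (1 direction of the fit). Pecam1 and Esam had 6 of 9, with 4.78% and 12.6% of all 18748 other genes rising. Cldn5, Kdr and Rgs5 had 5 of 9, with 15%, 4.13% and 13.7%. Slc2a1 had 4 of 9 with 22.5%, and Tek 3 of 9 with 9.13%. Flt1, Ets1 and Pdgfrb had 0 of 9, with 0.048%, 0.117% and 0.4% of all genes rising. Counted in either direction, the share of all genes called was 22.1% for Cldn5, 6.47% for Pecam1, 20.5% for Esam, 38.9% for Slc2a1, 5.42% for Kdr, 10.9% for Tek and 17.8% for Rgs5. For Flt1, Ets1 and Pdgfrb it was 0.117%, 0.235% and 0.464%, or 22, 44 and 87 genes, while 3075, 2572 and 3753 genes had an unadjusted p under 0.05. The members without partners were thus also those with which few genes of any kind moved. Single libraries moved these numbers: without series C library 62, 138 genes were called on Pecam1 in place of 1213, 336 on Flt1, 326 on Ets1 and 0 on Pdgfrb. Without series D library 67, 2736 were called on Cldn5 in place of 4149, 422 on Kdr in place of 1016 and 0 on Pdgfrb. Without series C library 45, 2476 were called on Esam in place of 3851, and without series D library 71, 882 on Tek in place of 2037.

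**Figure D2:**
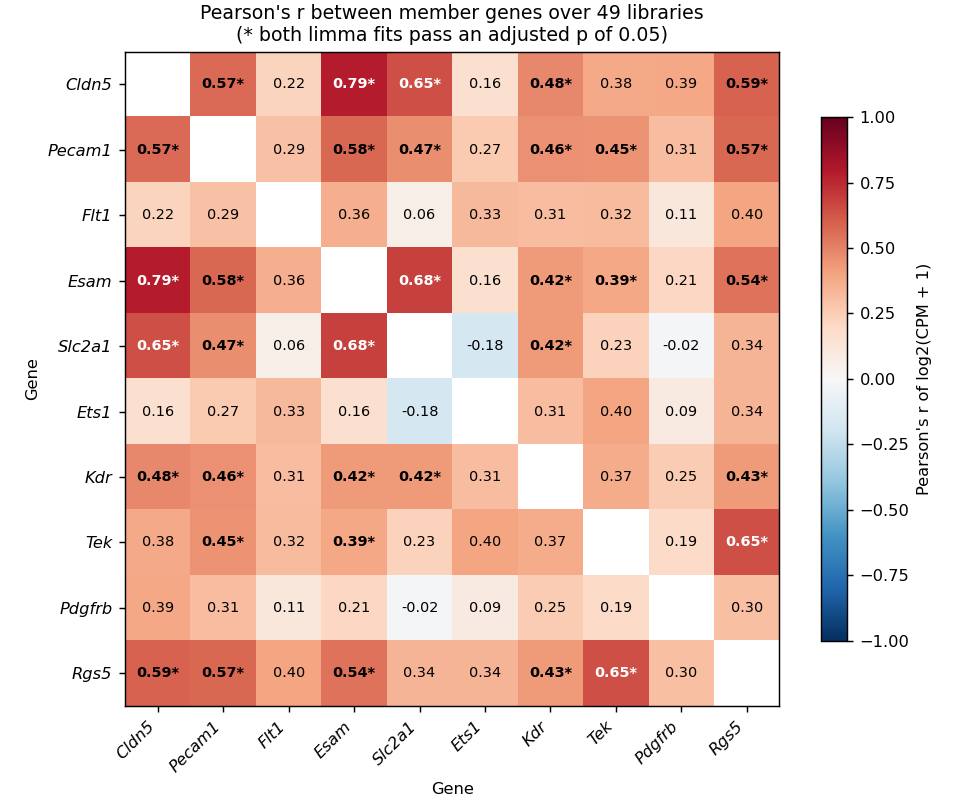
Pearson's r of log2(CPM + 1) between each pair of the 10 genes over 49 libraries, on a colour scale from -1 to 1, with an asterisk where both limma fits pass an adjusted p of 0.05. Values run from -0.18 (Slc2a1 with Ets1) to 0.79 (Cldn5 with Esam), and the Flt1, Ets1 and Pdgfrb lines carry no asterisk.

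The highest r was that of the junction genes Cldn5 and Esam, at 0.79 (Spearman's rho 0.79, permutation p = 1e-05 for each, the smallest that 100000 permutations can give, and adjusted p = 8.9e-07 in the weaker of both fits). Leaving out the 2 libraries with the most extreme Cldn5 level, by distance from the median, gave 0.75. Within series B to F it was 0.14, 0.52, 0.88, 0.73 and 0.68, positive in all 5.

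Esam and Slc2a1 followed at r = 0.68 (rho 0.64, adjusted p = 4.9e-05), with 0.62 without the 2 farthest libraries. This pair depended on the series: r was -0.08, 0.57, 0.37, 0.92 and 0.07 within B to F, and 0.33 over the 35 libraries of B, C and D, where the call was lost. Cldn5 and Slc2a1 had r of 0.65 (rho 0.70, adjusted p = 8.3e-05), and 0.80, 0.53, 0.32, 0.88 and 0.29 within series. Its call was lost over the 35 libraries of B, C and D too, where r was 0.43. Of the 17 called pairs, 5 had a positive r in every series: Cldn5 with Esam and with Slc2a1, Pecam1 with Kdr and with Tek, and Esam with Tek.

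The pericyte gene Rgs5 had 5 called partners, all endothelial, and whether its r differed from that with Pdgfrb was not tested. Tek and Rgs5 had r of 0.65 (rho 0.51, permutation p = 2e-05 for r and 0.0002 for rho, adjusted p = 0.00043). Series C libraries 62 and 63 were at the low end of both genes, and leaving out the 2 libraries with the most extreme Tek level gave 0.47. Within B to F it was -0.02, 0.86, 0.52, -0.37 and 0.81, so the sign was not the same in every series. Rgs5 with Cldn5 had r of 0.59 (rho 0.53, adjusted p = 0.0004), and with Pecam1 0.57 (rho 0.51, adjusted p = 0.0047). Rgs5 with Esam had 0.54 (rho 0.49, adjusted p = 0.0018) and with Kdr 0.43 (rho 0.46, adjusted p = 0.037).

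The receptors for vascular endothelial growth factor A were not a called pair: Flt1 with Kdr had r of 0.31 (rho 0.35, permutation p = 0.03 for r, adjusted p = 0.26), positive in all 5 series at 0.07 to 0.48. Pdgfrb with Cldn5 had r of 0.39 (rho 0.24, adjusted p = 0.11). Both negative values belonged to Slc2a1: -0.18 with Ets1 (permutation p = 0.22) and -0.02 with Pdgfrb (permutation p = 0.88).

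**Figure D3:**
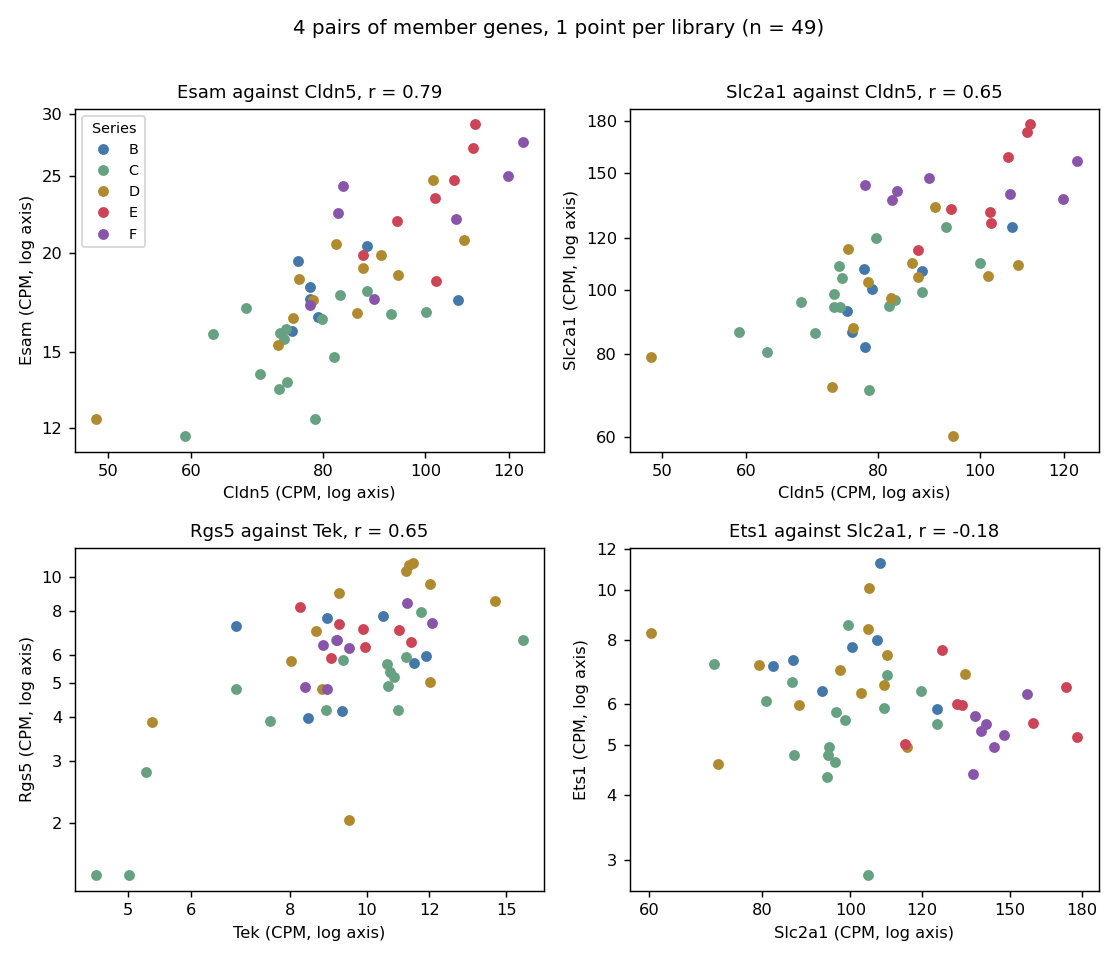
Levels of 4 pairs of genes (CPM, both axes logarithmic), 1 point per library (n = 49), coloured by identifier series. Esam follows Cldn5 within most series, Slc2a1 against Cldn5 shows series E and F shifted upward, Rgs5 against Tek leans on a few low libraries of series C and D, and Ets1 shows no rise with Slc2a1 (r = -0.18).

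Pair calls were fewer once differences between series were taken out. With series as a covariate 6 pairs were called, all among the 17: Cldn5 with Esam, Slc2a1 and Rgs5, and Rgs5 with Pecam1, Esam and Tek. Without series E and F, 8 were called, all among the 17, and without the 2 libraries farthest from each predictor's median, 6. Cldn5 with Esam, Cldn5 with Rgs5, Esam with Rgs5, and Tek with Rgs5 were called in all 3 of these fits.

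Differences between series were tested for every gene with limma's F test over the 5 series, which called 320 of 18749 genes (1.71%). Among the members 2 of 10 passed, Slc2a1 (adjusted p = 1.5e-05) and Esam (adjusted p = 0.00013). Cldn5 had an adjusted p of 0.051, Pecam1 0.095, Ets1 0.13 and Rgs5 0.27, and the others were between 0.42 and 0.97. With size factors in place of library totals, 4 of 10 passed, with Cldn5 at 0.012 and Pecam1 at 0.041.

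Slc2a1 medians were 100.4, 96.3, 104, 133 and 141 CPM in series B to F. Libraries of series E and F ran from 115 to 178 CPM, and all 14 were above the median of the 35 libraries of B, C and D, which ran from 60.3 to 134 CPM; 10 of the 14 were above the highest of them. Esam medians were 17.5, 15.8, 18.6, 23.5 and 22.5 CPM, and all 14 libraries of E and F were above the median of the others. The groups overlapped for Esam, with 4 of the 14 above the highest of the 35. Cldn5 medians were 77.7, 73.8, 84.2, 102 and 89.4 CPM, with 13 of 14 libraries of E and F above the median of the others. Pdgfrb, which did not pass the test, had medians of 11.4, 10.9, 11.6, 9.75 and 9.92 CPM, and 5 of 14 libraries of E and F were above the median of the others.

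Other values moved with series E and F. Fos, an immediate early gene induced by neuronal activity, had medians of 8.44, 9.37, 8.03, 167 and 194 CPM in B to F. Summed levels of 9 erythroid genes ran from 54.7 to 1317 CPM in B, C and D and from 526.1 to 2771 CPM in E and F. These were globins, Alas2, Slc4a1 and Ahsp, with Slc4a1 and Ahsp not past the filter. Their part in the levels of Slc2a1 and Esam was not tested. Xist was above Ddx3y in 5 of 7, 6 of 16, 12 of 12, 7 of 7 and 7 of 7 libraries of B to F, so series D was like E and F in this. Without series E and F, the F test over B, C and D called 0 of 10 members and 0 genes in all, with 654 genes at an unadjusted p under 0.05.

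The members were set beside lists of other vascular genes, to see which further genes of the vessel wall moved with them. A slope is the change in log2(CPM + 1) for 1 SD of the member's own log2 level over the 49 libraries. With Cldn5, 10 of 13 genes of blood-brain barrier transport rose and 0 fell, against 15% of all genes rising, and the list's median slope was 0.13 beside 0.01 over all genes. They were led by Abcg2, a drug efflux pump (0.24 ± 0.08, SE), and Itm2a (0.23 ± 0.06). Slc3a2 (0.18 ± 0.02, adjusted p = 5e-06), the heavy chain that pairs with Slc7a5 (0.13 ± 0.04) to carry large amino acids, and Mfsd2a (0.18 ± 0.03), a lipid carrier that limits transcytosis, were among them. Slco1c1 (0.16 ± 0.03), which carries thyroxine, and Slco1a4 (0.16 ± 0.05) rose as well. Abcb1a, Slc16a1 and Tfrc, the other 3, did not pass.

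Of 15 endothelial identity genes, 9 rose with Cldn5 and 0 fell (median slope 0.12). The highest slopes were those of the adhesion receptor gene Adgrl4 (0.31 ± 0.05), the TGF-beta coreceptor gene Eng (0.22 ± 0.04), Tie1 (0.20 ± 0.05) and Icam2 (0.20 ± 0.04). Among transcription factors 3 of 12 rose, Sox18 (0.20 ± 0.04), the flow-induced Klf2 (0.20 ± 0.06) and Sox7 (0.16 ± 0.05). Of the junction list 3 of 9 rose, among them Lsr, which acts at tricellular junctions (0.14 ± 0.03), and Ocln (0.13 ± 0.04). Arterial genes rose in 3 of 7, with the connexin gene Gja4 at 0.24 ± 0.05, and venous genes in 2 of 7, Slc38a5 and Icam1. Of 17 ligands and coreceptors 4 rose, Angpt2, Pgf, Ndp and Wnt7a, and of 11 basement membrane genes 2, Lamb2 and Lamc1. All these counts stand against 15% of all genes rising with Cldn5. Those of the transcription factor, ligand and coreceptor, and basement membrane lists were near that share and do not set these lists apart.

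Pericyte genes rose with Cldn5 in 7 of 14 and fell in 0, led by Vtn (0.28 ± 0.04, adjusted p = 4.3e-05), which encodes vitronectin, and Kcnj8 (0.27 ± 0.06), a subunit of the ATP-sensitive potassium channel of pericytes. Smooth muscle genes rose in 1 of 9 (Myl9) and perivascular fibroblast genes in 1 of 10 (Slc6a13). For both lists the share that rose was below the 15% of all genes. Lists of other cells were fitted in the same way. Called on Cldn5 in either direction were 5 of 8 oligodendrocyte, 4 of 7 precursor, 3 of 9 microglial and 2 of 9 astrocyte genes. So were 3 of 7 erythroid, 1 of 6 perivascular macrophage, 1 of 9 neuronal and 2 of 10 RMTg genes, against 22.1% of all genes. Calls on Cldn5 were thus not confined to vascular lists.

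Fewer of these calls held once series were taken into account. Counts of all genes called on Cldn5 in these fits, which were lower too, stand in the last section. With series as a covariate 4 of the 10 called transport genes and 7 of the 9 called identity genes kept their calls, and without series E and F 2 and 5 did. Of the 7 pericyte genes 3 kept theirs with the covariate and 2 without E and F. Junction genes kept 2 of 3 in each, transcription factors 1 of 3 in each, and arterial genes 2 and 1 of 3. The calls in the venous, ligand and coreceptor, basement membrane, smooth muscle and fibroblast lists were all lost in both. Both transport genes called without E and F, Slc3a2 and Slco1c1, kept slopes of 0.16, and Vtn had a slope of 0.33 there.

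**Figure D4:**
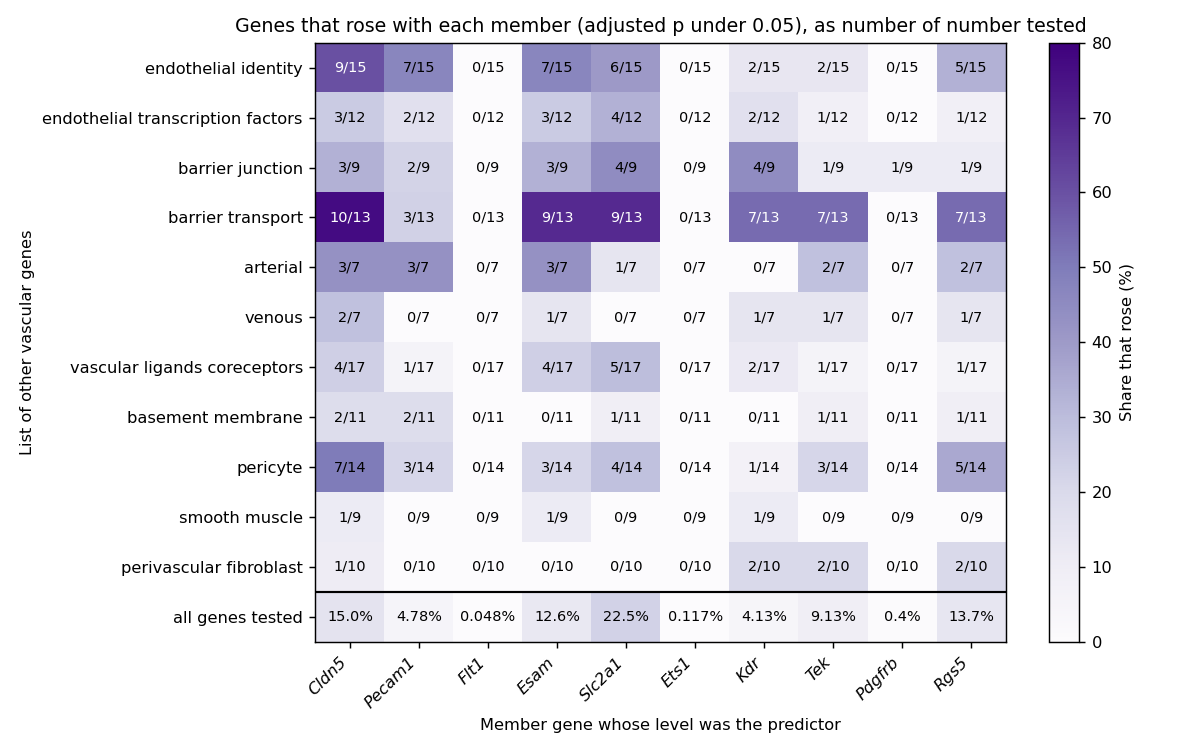
Number of genes of each vascular list that rose with each member (limma, adjusted p under 0.05) over the number tested, shaded by the share that rose, with the share of all genes tested in the bottom line. Transport genes have high shares for 6 predictors (Cldn5, Esam, Slc2a1, Kdr, Tek and Rgs5), while Flt1, Ets1 and Pdgfrb are at or near 0 in every list. Lists of other cell types are not drawn.

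With Esam, 9 of 13 transport genes rose and 7 of 15 identity genes, against 12.6% of all genes, again led by Adgrl4 (0.35 ± 0.05) and Itm2a (0.27 ± 0.05). With Slc2a1, 9 of 13 transport genes rose, against 22.5% of all genes, led by Abcg2 (0.25 ± 0.08) and Mfsd2a (0.23 ± 0.03). In the transcription factor list Klf2 rose with Slc2a1 (0.28 ± 0.05) and Lef1, an effector of Wnt signalling, fell (-0.25 ± 0.05). The contractile genes Lmod1 (-0.28 ± 0.07) and Cald1 (-0.16 ± 0.05) fell with it too, 2 of 9 smooth muscle genes. All 7 erythroid genes past the filter rose with Slc2a1, from 0.26 for Alas2 to 0.50 for Hbb. The summed levels of the whole erythroid list by series are those given above. These 7 slopes turned negative, with none called, both with series as a covariate (-0.23 to -0.03) and without series E and F (-0.25 to -0.11). Of the transport calls, 1 of 9 on Esam and 5 of 9 on Slc2a1 held with the covariate, and 4 and 2 without E and F. The share of all genes called on these 2 members that held is not given here. The calls of Klf2, Lmod1 and Cald1 on Slc2a1 were lost in both, and those of Abcg2 and Lef1 without E and F.

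With Rgs5, 5 of 14 pericyte genes rose, against 13.7% of all genes: Vtn (0.27 ± 0.05), Abcc9 (0.21 ± 0.03), which encodes the partner subunit of Kcnj8 (0.21 ± 0.06), Atp13a5 (0.21 ± 0.04) and Higd1b (0.13 ± 0.05). Transport genes rose with it in 7 of 13, with Itm2a at 0.32 ± 0.05, and identity genes in 5 of 15, with Adgrl4 at 0.29 ± 0.05. Dcn and Col3a1, fibroblast genes, rose by 0.18 each per SD of Rgs5, and 0 of 9 smooth muscle genes rose. With series as a covariate 4 of the 5 pericyte calls and 6 of the 7 transport calls held, and without series E and F 3 and 6. The share of all genes called on Rgs5 that held in these fits is not given here, so these counts have no background. Higd1b lost its call in both.

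With Pdgfrb, 0 of 14 pericyte genes and 0 of 15 identity genes rose, against 0.4% of all genes, where 13.7% rose with Rgs5. At a share of 0.4%, counts of 0 in lists this short do not set them apart from all genes. The difference between the slopes on Pdgfrb and those on Rgs5 was not tested. Pdgfrb is also made by fibroblasts. Of 10 fibroblast genes 0 rose with it, which at a share of 0.4% cannot tell whether fibroblasts add to its level. With Pecam1, 7 of 15 identity genes rose, with Emcn, an endothelial sialomucin, and Adgrl4 at 0.29 ± 0.05 each, against 4.78% of all genes. Whether these calls held with series taken into account is not given here. Calls on Pecam1 over all genes fell from 1213 to 138 without series C library 62, its lowest library. With Kdr 7 of 13 transport genes and 4 of 9 junction genes rose, against 4.13%, and the slope of the VEGF coreceptor gene Nrp1 was 0.11 ± 0.03. Of the identity genes only Eng (adjusted p = 0.027) and Icam2 (adjusted p = 0.014) passed with Kdr. With Tek 7 of 13 transport genes rose against 9.13%, and Tfrc, the transferrin receptor gene (0.15 ± 0.03), passed with this member but not with Cldn5. Of the identity genes only Adgrl4 (adjusted p = 0.029) and Emcn (adjusted p = 0.022) passed with Tek. Cdh5 and Vwf passed with neither Kdr nor Tek. Transport calls held with series as a covariate in 0 of 7 on Kdr and 6 of 7 on Tek, and without series E and F in 3 and 5. The share of all genes called on Kdr and Tek that held is not given here. The call of Nrp1 on Kdr was lost in both.

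With Flt1 and Ets1, 0 genes of the vascular lists rose, against 0.048% and 0.117% of all genes. At such shares counts of 0 do not set these lists apart. Pi16, a fibroblast gene, fell with Flt1 (-0.20 ± 0.04, adjusted p = 0.025), where 0.117% of all genes were called in either direction. With Ets1, 2 of 9 microglial genes rose, Aif1 (0.19) and Cx3cr1 (0.18), and 0 fell, against 0.117% of all genes rising. Of the 10 RMTg genes, Gata3, a transcription factor of these neurons, fell with Ets1 (-0.10, adjusted p = 0.030). None of these 3 calls on Ets1 held with series as a covariate or without series E and F.

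Because bulk RNA mixes cell types, members were tested against the mean z-scored level of marker lists of other cells. On the oligodendrocyte score 7 of 10 members rose and 0 fell, where 17.5% of all genes rose and 26.3% changed in either direction: Cldn5 (0.13 ± 0.03), Pecam1, Esam, Slc2a1, Kdr (0.16 ± 0.03), Tek and Rgs5. On the score of oligodendrocyte precursors 6 of 10 rose, where 12.1% of all genes did (15.6% in either direction), and on the astrocyte score 6 of 10, where 18.9% did (38.2% in either direction). Slc2a1 (0.19 ± 0.04) and Rgs5 (0.20 ± 0.06) had the highest slopes on the astrocyte score. On the microglia score only Kdr rose (0.13 ± 0.04), where 2.62% of all genes did (3.05% in either direction). On the neuron score Slc2a1 rose (0.13 ± 0.04) and Ets1 fell (-0.12 ± 0.04), where 10.3% of all genes changed and 8.43% rose. No member passed on the erythroid score, on which 0.63% of all genes changed, or on the library total, on which 0.0107% did; 3204 and 1589 genes had an unadjusted p under 0.05 there.

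Flt1 and Pdgfrb passed on none of these scores, and median slopes of the 10 members were 0.13 on the oligodendrocyte, 0.12 on the precursor and 0.11 on the astrocyte score, beside 0.02, 0.02 and 0.00 over all genes. Summed levels of the 8 oligodendrocyte genes ran from 33328 to 78624 CPM over the 49 libraries, and those of the 9 astrocyte genes from 4110 to 6389 CPM, with all markers of both lists past the filter. The part of glial content in the members' correlations was not tested. With series as a covariate 4 of 10 members rose on the oligodendrocyte score, 2 on the astrocyte score and 2 on the precursor score. The share of all genes that rose in these fits is not given here, so these counts have no background beside them.

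**Figure D5:**
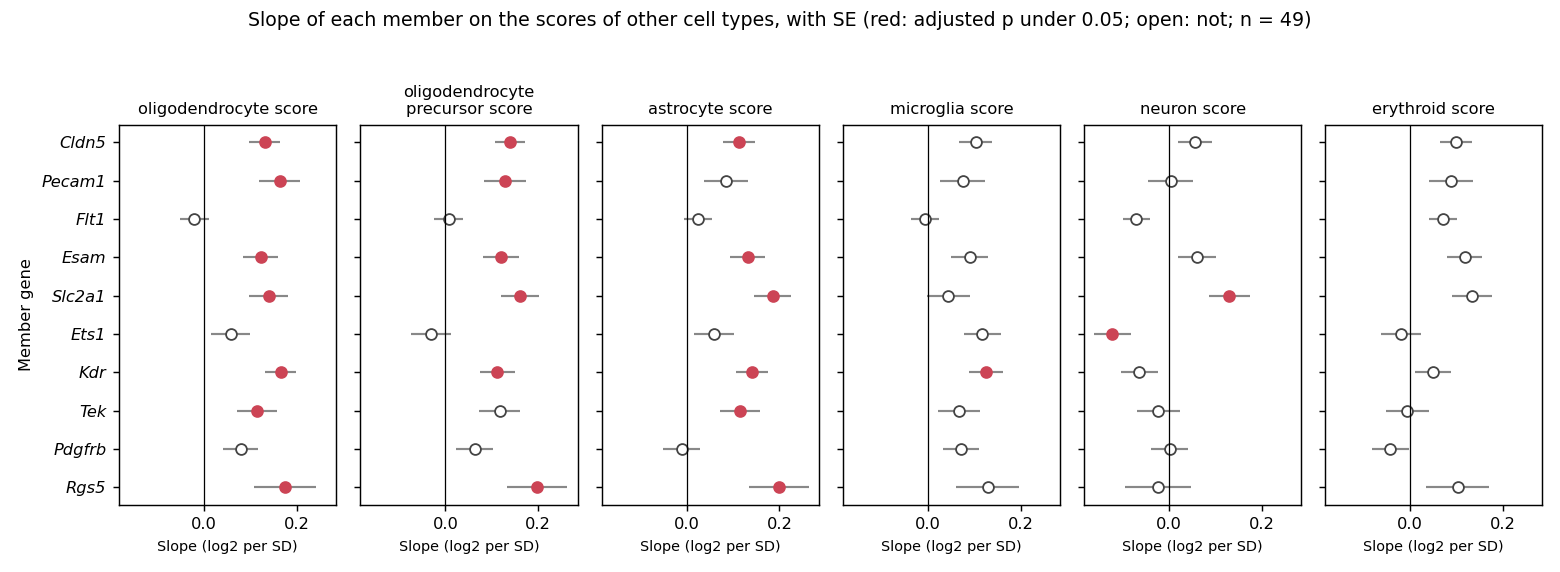
Slope of each gene (log2 units per SD of the score, with SE) on the scores of 6 other cell types over 49 libraries, red where the adjusted p is under 0.05. Slopes on the oligodendrocyte, precursor and astrocyte scores lie mostly right of 0, and those on the neuron score lie on both sides of it.

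Genes were ranked by Pearson's r with the mean z-score of the 10 members, keeping those of 1 sign in every series. The highest were Mpzl1 (r = 0.78), Tmed10 (0.76), Slco1c1 (0.75), Pex13 (0.75) and Papss1 (0.74), all over 49 libraries. Slco1c1 is the only member of the barrier transport list among the 15 highest, which also held Car4, Elovl7, Cers2 and Cnn3. The lowest were Fam219a (-0.65) and Nudt3 (-0.61). The mean z-score itself was lowest in series C library 62 (-1.73) and series D library 67 (-1.44), and highest in series E library 84 (1.18).

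For single members, the genes of highest r were partly vascular and partly not. Esam (0.79), Mfge8 (0.74) and Slc3a2 (0.74) were most like Cldn5, and Cldn5 and Adgrl4 (0.72) most like Esam. Zfp518b (0.67), Palmd (0.65) and the endothelial gene Emcn (0.64) were most like Pecam1. Slc2a1 was followed most closely by Mat2al1 (0.85), Rcan2 (0.82), an inhibitor of calcineurin, and Errfi1 (0.82). For Rgs5 these were Bcap31 (0.77), Tmed10 (0.77) and Pde4b (0.73), and for Tek Bnip2 (0.69), Itgb1 (0.67) and Kat2b (0.65). Enpp2 (0.69), which choroid plexus and oligodendrocytes make, was most like Kdr. Elk3 (0.57), an ETS factor, was most like Ets1, Usp31 (0.63) most like Flt1, and Lzic (0.61) most like Pdgfrb.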

How the data were processed

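The labels give 93 samples of the RMTg in 1 group. One, marked as removed, was not used here for want of a column. Of the 2 whose identifiers were corrected, per the labels, 1 is among the 49 libraries. The deposited values are log2 of an estimated count plus 1, by the values: among values of 0 to 20 after back-transformation, 0 left out, 49.98% were within 0.01 of a whole number, and totals differ between libraries. Kallisto 0.48 is named in the submitters' processing notes. The genome build is not given in the sources used here. Gene positions are those of RefSeq (GRCr8), and equal a gene end there for all 38278 matched symbols.

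Values were back-transformed and scaled to CPM of each library's total, and log2(CPM + 1) was taken. The filter on low values kept the 18749 genes that reached 1 on that scale in 20% or more of the 49 libraries. Slopes and series were tested with limma 3.58.1 (mean trend) in R 4.3.3, adjusted by Benjamini-Hochberg over all genes, and each procedure was tested on simulated data. Permutation tests were two-sided (100000 permutations, scipy 1.17.1). A new series began at an identifier gap of over 50000. Series in which r had to keep its sign held at least 6 libraries.

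The members, the rule for libraries and the gene lists were chosen with earlier results of these data known. Named genes are the 10 members, members of the lists, the 15 genes of highest and 6 of lowest r with the members' mean z-score that kept 1 sign in every series, and the 3 genes of highest r with each member, passing over symbols without a gene name. Alternatives were other size factors, totals without the dominant and ribosomal RNA features, a pseudocount of 0.5, no filter or a stricter one, all 92 libraries, leaving out libraries, and covariates. Series E and F and each library in turn were left out after the data had been seen. The values of 1 gene of the junction list are not reported here.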

Additional observations from a re-analysis of the deposited data

Results flagged for a closer look

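In series of 7 libraries, 2 of 30 groups held a library far from the rest, where chance gives about 1 in 20. Cldn5 in series B library 32 was at 107.3 CPM, with the other 6 libraries of that series between 74.8 and 88.1 CPM. Ets1 in series B library 38 was at 11.25 CPM, and that library was also the highest of all 49 for Kdr (20.5 CPM).

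The members were also above the limit that a count of 0 allows in libraries left out of the comparisons. In the 32 libraries where LOC120093067 and Zfp532 took over 10% of the counts, 10 of 10 members had a median above it, for example Flt1 at 43.1 CPM and Rgs5 at 1.23 CPM. In the 11 libraries dominated by Nif3l1 only Slc2a1, 1 of 10, did, at a median of 1.13 CPM, and Pdgfrb was listed at 0 in 10 of the 11.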

How the results depend on the processing

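Of 45 pairs, 17 were called. With size factors 11 were, with series as a covariate 6, without series E and F 8, without the 2 libraries farthest from the predictor's median 6, and over all 92 libraries 45; all other alternatives gave 13 to 18. Leaving out each library in turn gave 12 to 18, the lowest without series D library 67 or 75. No paired analysis was possible because all libraries form 1 group and the labels carry no replicate numbers.

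For genes called on Cldn5 (4149) the count was 2151 with series as a covariate, 1848 without series E and F, 2251 without the 2 farthest libraries, 18080 over all libraries, and 2736 (without series D library 67) to 5032 when each library was left out. For Pdgfrb (87) it was 0 with size factors and without the 2 farthest libraries, 9 with dominant features out of totals and with no filter, 149 with Xist and Ddx3y as covariates, 5 without series E and F, 15 without the library whose identifier was corrected, 18152 over all libraries, and 0 (without series C library 62 or series D library 67) to 434 when each was left out, so the number of genes moving with Pdgfrb is not settled by these libraries. Without series C library 62, 138 genes were called on Pecam1 in place of 1213. Without series C library 44, 0 were called on Ets1 in place of 44, and without series C library 63, 0 on Flt1 in place of 22.

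For the microglia score (1) 0 were called with dominant features out, no filter, the library total, series, or Xist and Ddx3y as covariates. For the neuron score (2) 1 was called with dominant features out, and 0 with size factors, no filter, series or Xist and Ddx3y as covariates, or without series E and F. For precursors (6) the counts were 3 with dominant features out and with no filter, 1 with size factors and without series E and F, and 2 with series as a covariate. For astrocytes (6) they were 2 with series as a covariate and 3 without series E and F, and for oligodendrocytes (7) 4 and 3. On the erythroid score 3 were called with size factors. Over all 92 libraries 10 were called on the astrocyte, microglia, precursor, neuron and erythroid scores and on the library total. Shares of all genes called on the scores under these alternatives are not given here, so the counts of members have no background beside them.

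Between series, 4 members passed with size factors and 0 without series E and F, and all genes numbered 105 with Xist and Ddx3y as covariates and 0 without series E and F, in place of 320.

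Over all 92 libraries mean levels were 53.9 CPM for Cldn5, 43.9 for Flt1, 13.5 for Esam, 83.1 for Slc2a1, 9.39 for Kdr, 6.82 for Tek, 7.55 for Pdgfrb and 3.75 for Rgs5. The SD of log2 levels rose there to 2.08 for Cldn5, 1.21 for Pecam1, 1.70 for Flt1, 1.37 for Esam, 1.92 for Slc2a1, 1.01 for Ets1, 1.34 for Kdr, 1.11 for Tek, 1.2 for Pdgfrb and 1.13 for Rgs5. Over all libraries the slope on Cldn5 turned to 0.19 for Cd163, 1.14 for Slc32a1, -0.91 for Slc7a1 and -2.24 for Sox18, and that of Ets1 on the neuron score to 0.86. Without series E and F the slope on Cldn5 was -0.0474 for Alas2 and -0.043 for Hbb-bs. Over all libraries the slope on Slc2a1 turned to 1.17 for Lef1, 0.943 for Lmod1 and 1.48 for Cald1, that of Gata3 on Ets1 to 1.58 and that of Pi16 on Flt1 to 0.657. On Slc2a1, the slopes of Hba-a1, Hba-a2, Hba-a3, Hbb, Hbb-bs, Hbb-b1 and Alas2 were -0.0634, -0.22, -0.227, -0.14, -0.175, -0.165 and -0.0283 with series as a covariate, and -0.113, -0.236, -0.253, -0.164, -0.218, -0.166 and -0.11 without series E and F. Slopes on members other than Cldn5 and Pdgfrb were recomputed only for the list genes named in the text, after the data had been seen. The causes were not tested. Depth limits Rgs5 most, with as few as 25 estimated counts in a library.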
